A study of Mus musculus with 8 samples.

Results

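The acute phase response genes described here are 10 plasma and secretory protein genes of mouse liver, taken by their gene name from the count table of the series: Saa1, Saa2, Saa3, Saa4, Orm1, Orm2, Orm3, Hp, Apcs and Lcn2. They are 10 of the 37583 genes listed. All 10 had enough counts to be among the 17362 genes tested.

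Messenger RNA of whole liver was sequenced in 8 libraries from mice of the C57BL6/CBA strain, aged 8 months. Of these, 4 libraries are labelled PR-SET7_LOBE and carry the genotype label PR-SET7_LX_ALB_CRE: the gene of the histone methyltransferase Pr-Set7 is inactivated in hepatocytes, with a Cre under the albumin promoter by its name, and other liver cells keep the gene. Another 2 libraries are DEN_WT, from wild-type mice given 25 ml per kg of the liver carcinogen diethyl nitrosamine (DEN) into the peritoneum at an age of 15 days, with no concentration stated. The last 2 are WT, from wild-type mice for which the labels name no agent. What LOBE stands for is not given. No label states that replicates of a group are separate animals. The deposited counts mark each replicate BR with its number, which may stand for biological replicate but is not spelled out. Every p-value here therefore measures the spread between these libraries, which may be technical.

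Total counts ran from 7305595 to 16108081 per library. Levels are CPM, the usual scaling of counts by the library size, here after TMM. Setd8, the symbol of Pr-Set7 in the table, had 62.6, 57.4, 47.9 and 46.5 CPM in PR-SET7_LOBE, 40.0 and 42.8 CPM in DEN_WT, and 51.9 and 56.0 CPM in WT, with a log2 fold change of -0.01 (SE 0.32) between PR-SET7_LOBE and WT. These are counts of the whole gene and the deleted part is not given, so Setd8 does not check the genotype, and every direction below is that of libraries so labelled. All 10 hepatocyte markers examined were detected, with a summed level of 5390 to 13190.5 CPM in PR-SET7_LOBE, 10889 to 11318.5 CPM in DEN_WT and 16431 to 20009.9 CPM in WT.

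In the acute phase response, hepatocytes raise the output of a set of plasma proteins after infection, injury or inflammation elsewhere. Interleukin 6 acts through its receptor and the transcription factor STAT3, while interleukin 1 and tumour necrosis factor act through NF-kB and C/EBP factors, and the serum amyloid A genes answer to both arms. In the mouse, Saa1 and Saa2 are the strongest responders of the set, Saa4 is regarded as constitutive, and the plasma level of serum amyloid P is the main pentraxin response.

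The 4 Saa genes lie side by side on chromosome 7 (mm9, 53967368 to 54009684 from the start of Saa3 to the end of Saa2), and the 3 Orm genes on chromosome 4 (63005594 to 63026912 from the start of Orm1 to the end of Orm2). RefSeq promoters of build GRCm38.p6 matched 8 of the 10 genes by symbol; Orm1 and Hp were not matched. The 250 bases before the start are printed for the Saa genes, whose levels differed most and least among libraries, and for the pair Orm2 and Orm3, 5′ to 3′ on the strand of the gene, with capitals marking the C/EBP-type letters TTNNGCAA on either strand.
Saa1, - strand, chr7:46742981-46743230: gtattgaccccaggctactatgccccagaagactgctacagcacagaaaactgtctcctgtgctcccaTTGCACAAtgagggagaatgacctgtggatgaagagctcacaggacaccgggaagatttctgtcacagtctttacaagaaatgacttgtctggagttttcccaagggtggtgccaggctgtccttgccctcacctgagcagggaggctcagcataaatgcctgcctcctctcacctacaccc
Saa2, + strand, chr7:46751583-46751832: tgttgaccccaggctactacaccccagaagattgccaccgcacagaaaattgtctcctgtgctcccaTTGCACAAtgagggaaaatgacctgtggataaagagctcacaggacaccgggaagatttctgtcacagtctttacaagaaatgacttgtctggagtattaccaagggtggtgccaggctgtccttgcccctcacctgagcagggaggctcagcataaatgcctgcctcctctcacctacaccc
Saa3, - strand, chr7:46715677-46715926: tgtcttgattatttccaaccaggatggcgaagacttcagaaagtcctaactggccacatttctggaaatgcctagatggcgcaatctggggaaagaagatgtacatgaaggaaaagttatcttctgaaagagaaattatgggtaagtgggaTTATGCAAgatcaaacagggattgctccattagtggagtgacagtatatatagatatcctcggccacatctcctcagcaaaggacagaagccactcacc
Saa4, - strand, chr7:46732604-46732853: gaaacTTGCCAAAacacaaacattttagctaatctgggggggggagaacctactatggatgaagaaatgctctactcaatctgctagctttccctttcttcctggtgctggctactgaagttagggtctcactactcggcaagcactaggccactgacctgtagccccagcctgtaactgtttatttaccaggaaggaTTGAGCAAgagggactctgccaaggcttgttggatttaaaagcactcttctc
Orm2, + strand, chr4:63362199-63362448: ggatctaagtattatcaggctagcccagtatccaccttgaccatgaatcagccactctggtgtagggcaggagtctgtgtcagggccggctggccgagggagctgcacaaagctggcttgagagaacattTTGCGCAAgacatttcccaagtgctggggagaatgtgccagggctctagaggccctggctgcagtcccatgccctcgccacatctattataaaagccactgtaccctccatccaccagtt
Orm3, + strand, chr4:63355908-63356157: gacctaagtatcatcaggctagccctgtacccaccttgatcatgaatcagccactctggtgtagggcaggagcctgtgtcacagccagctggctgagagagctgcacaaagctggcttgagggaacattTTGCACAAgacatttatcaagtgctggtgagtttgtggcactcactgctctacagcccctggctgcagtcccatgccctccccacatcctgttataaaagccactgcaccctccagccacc
The Saa1 and Saa2 stretches were 94.8% identical over an alignment of 251 columns, and those of Orm2 and Orm3 85.5% identical over 255. Saa1 and Saa4 shared 46.3% over 272 columns. The letters TTNNGCAA occurred in 7 of the 8 promoters, with Apcs the exception, against 9.56% of all 32851 promoters of this length. A second C/EBP-type pattern, TTNNGNAAT, was found in Saa1, Saa2 and Orm2 (10.2% of all promoters), and in Saa1 and Saa2 it covers the same bases as the first. The spaced STAT-type pattern, TTNC and GNAA with 2 free bases between them, was found in 5 of the 8 promoters, those of the 4 Saa genes and Apcs (6.34% of all), and the STAT-type pattern TTCNNNGAA in Apcs (7.02% of all). The NF-kB-type pattern (GGG and TTNCC with 2 free bases between them), its strict form (with TTTCC) and the strict STAT-type pattern TTCCNGGAA matched 0 of the 8 (4.11%, 1.41% and 0.913% of all promoters). TATAAA was found in Orm2 and Orm3 (12.4% of all). Both strands were searched for each pattern, the patterns were picked after several had been looked at, and a match is a description of the letters only.

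For every gene of the set but Saa4, the SD within groups, pooled over the 3 groups, was larger than for most tested genes. Saa1 and Saa2 ranged over more than 2 orders of magnitude among the 4 PR-SET7_LOBE libraries. Saa3 was the 1 gene that passed edgeR's quasi-likelihood test in any comparison, and it fell in DEN_WT livers to 5.18 ± 2.82 CPM, against 91.6 ± 74.0 CPM in WT (SD, n = 2 each), a comparison in which 9.73% of all tested genes passed. In DEN_WT, 8 of the 10 genes lay below both WT libraries, as did 33.3% of all tested genes. Within the set Apcs stood apart: its DEN_WT libraries were the highest of all 8. The same order was found in some acute phase genes outside the set, such as Crp, Fga, Fgb and Fgg. Of all tested genes, 37.8% had both DEN_WT libraries above both WT libraries, and 21.2% had all PR-SET7_LOBE libraries below both DEN_WT libraries.

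**Figure D1:**
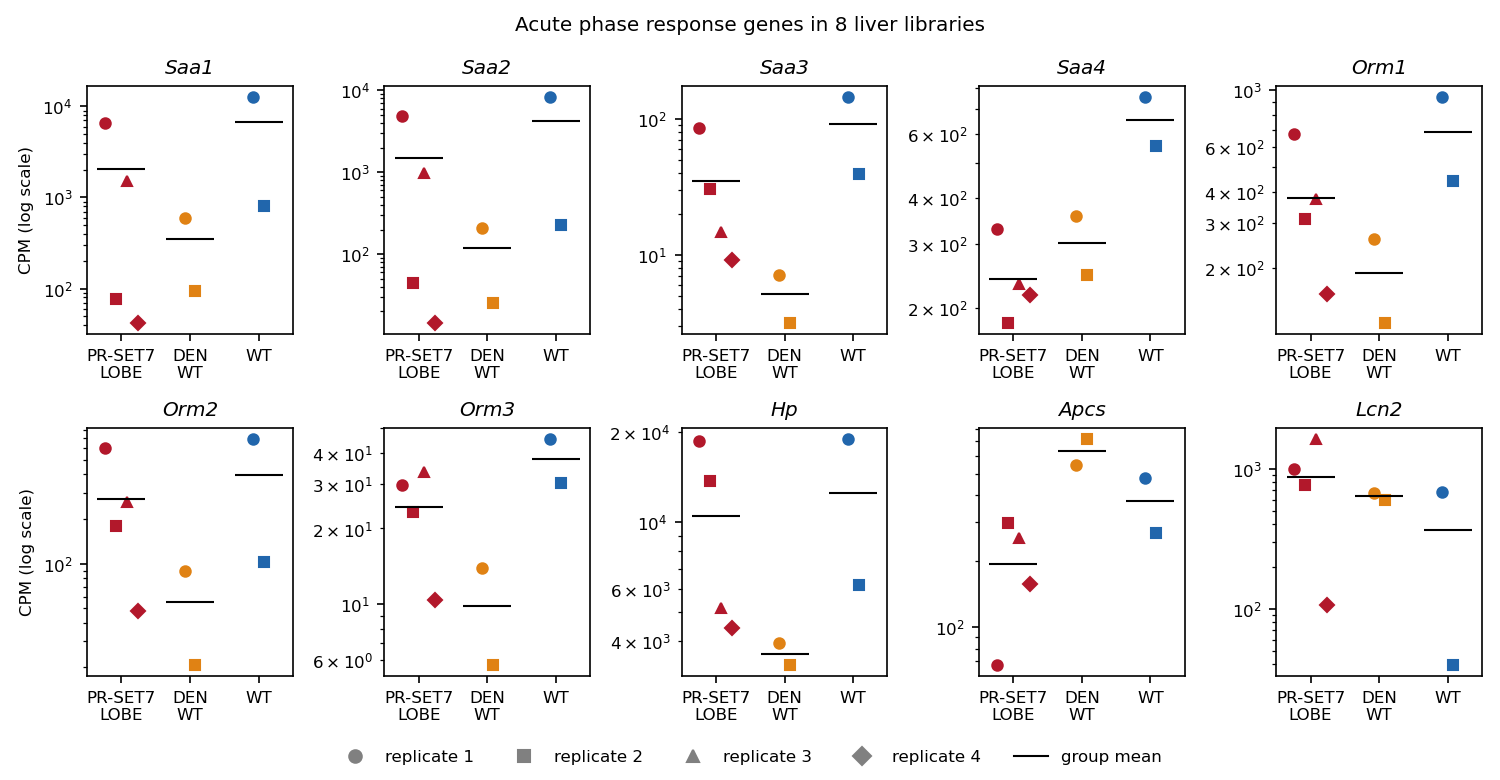
Level of each acute phase response gene in CPM (vertical axis, log scale, own range for each gene) in the PR-SET7_LOBE (n = 4), DEN_WT (n = 2) and WT (n = 2) libraries; a point is 1 library, its shape gives the replicate number and the bar is the group mean. Saa1 and Saa2 are spread widest within groups, and for Apcs the DEN_WT points, 548 and 715 CPM, lie above the other 6.

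Saa1 and Saa2 encode the serum amyloid A proteins that ride on high-density lipoprotein in plasma. Saa1 had 6586, 76.2, 1532 and 42.1 CPM in PR-SET7_LOBE replicates 1 to 4, 601 and 94.9 CPM in DEN_WT, and 12576 and 801 CPM in WT. Saa2 had 4876, 44.1, 983 and 14.6 CPM in PR-SET7_LOBE, 209.6 and 25.6 CPM in DEN_WT, and 8245 and 227 CPM in WT. PR-SET7_LOBE replicates 1 and 3 and WT replicate 1 were the 3 highest libraries for both genes, and the PR-SET7_LOBE libraries lay on both sides of the DEN_WT pair and overlapped WT. The highest PR-SET7_LOBE library had 156 times the Saa1 level and 335 times the Saa2 level of the lowest, while WT replicate 1 had 15.7 times the Saa1 level and 36.3 times the Saa2 level of WT replicate 2. The log2 fold change of Saa1 was -1.70 (SE 1.55, adjusted p = 0.570) in PR-SET7_LOBE against WT, and -4.27 (SE 2.13, adjusted p = 0.209) in DEN_WT against WT. For Saa2 the same values were -1.52 (SE 1.71, adjusted p = 0.650) and -5.17 (SE 2.45, adjusted p = 0.189). Between PR-SET7_LOBE and DEN_WT the log2 fold change was 2.57 (SE 1.84, adjusted p = 0.405) for Saa1 and 3.65 (SE 2.17, adjusted p = 0.317) for Saa2. None of these 6 differences passed the test, and without WT replicate 1 the PR-SET7_LOBE values against WT turned to 1.36 for Saa1 and 2.70 for Saa2.

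Transcripts of Saa1 and Saa2 are 93.5% identical over 612 aligned bases, and how reads with several hits were counted is not given, so the division of reads between the pair is uncertain. Saa1 made up 57.5% (95% Wilson interval 57.2 to 57.7), 63.4% (60.7 to 66.0), 60.9% (60.3 to 61.5) and 74.3% (70.7 to 77.6) of the pair's counts in PR-SET7_LOBE replicates 1 to 4. Its share was 74.1% (73.2 to 75.0) and 78.7% (76.5 to 80.8) in DEN_WT, and 60.4% (60.2 to 60.6) and 77.9% (77.1 to 78.7) in WT. The intervals cover counting error only, because PCR copies cannot be told from separate molecules without identifiers. The 3 libraries with the highest summed level of the pair, PR-SET7_LOBE replicates 1 and 3 and WT replicate 1, had the 3 lowest Saa1 shares. With the pair counted as 1 feature the log2 fold change was -1.63 (adjusted p = 0.601) in PR-SET7_LOBE against WT, -4.55 (adjusted p = 0.203) in DEN_WT against WT, and 2.93 (adjusted p = 0.372) in PR-SET7_LOBE against DEN_WT.

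**Figure D2:**
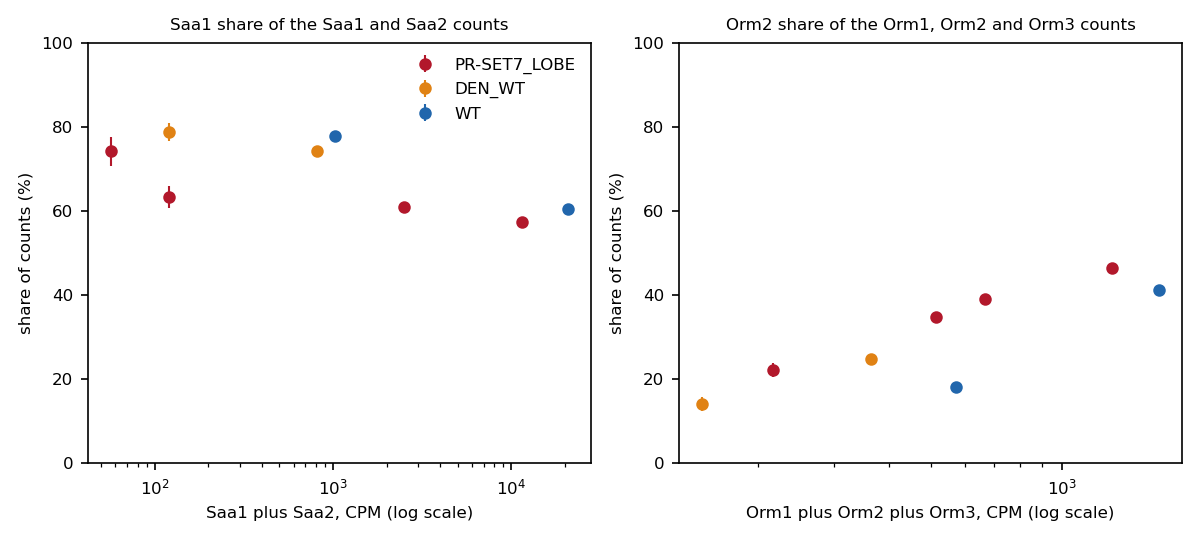
Share of Saa1 in the summed Saa1 and Saa2 counts (left) and of Orm2 in the summed Orm1, Orm2 and Orm3 counts (right), in percent, against the summed level in CPM (log scale), for each PR-SET7_LOBE, DEN_WT and WT library; bars are 95% Wilson intervals of counting error. The libraries with the highest totals have a low Saa1 share, 57.5% to 60.9%, and a high Orm2 share.

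Saa3 encodes a serum amyloid A that in mice is also made outside the liver, in macrophages and adipocytes among others. It had 85.8, 30.5, 14.8 and 9.20 CPM in PR-SET7_LOBE, 7.17 and 3.18 CPM in DEN_WT, and 144 and 39.3 CPM in WT. Both DEN_WT libraries were lower than the other 6, and the PR-SET7_LOBE libraries overlapped WT. Saa3 fell in DEN_WT against WT, with a log2 fold change of -4.14 (SE 1.07, 95% interval -6.49 to -1.79, adjusted p = 0.0351, edgeR's quasi-likelihood test), and the WT mean was 17.7 times the DEN_WT mean. The difference passed in 13 of 18 alternative settings, and its log2 fold change ran from -4.82 to -2.91 over them. It did not pass without PR-SET7_LOBE replicate 2 (adjusted p = 0.0572), without DEN_WT replicate 1 (0.117) or replicate 2 (0.229), without WT replicate 1 (0.183), or with no count filter (0.139).

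Between PR-SET7_LOBE and WT the log2 fold change of Saa3 was -1.38 (SE 0.78, adjusted p = 0.367), which did not pass. Without PR-SET7_LOBE replicate 1 it was -2.33 (adjusted p = 0.0431), in a fit that called 2392 of 17148 genes. With that library 43 of 17362 genes were called. Between PR-SET7_LOBE and DEN_WT the Saa3 value was 2.76 (SE 0.95, 95% interval 0.67 to 4.84, adjusted p = 0.0905), with no overlap of the groups. DESeq2 gave 2.70 for the same difference, at an adjusted p of 0.00640. The Saa3 count was 1.30%, 40.0%, 0.964% and 21.9% of the Saa1 count in PR-SET7_LOBE, 1.19% and 3.35% in DEN_WT, and 1.14% and 4.90% in WT. The Saa3 transcript matches that of Saa1 at 93.1% over 130 bases, so a part of the Saa3 counts could belong to Saa1, and that part was not measured. Where the percentage was high, as in PR-SET7_LOBE replicates 2 and 4, Saa1 itself was low.

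Markers of the cell types in which Saa3 is also made were read in the same libraries. The 12 macrophage and Kupffer cell markers summed to 514 to 1044 CPM in PR-SET7_LOBE, 321 to 488 CPM in DEN_WT and 405 to 1191 CPM in WT. All 12 were tested. In DEN_WT against WT Itgam, an integrin of myeloid cells, fell (log2 fold change -2.55, SE 0.63, adjusted p = 0.0301). Gpnmb, a glycoprotein of lipid-laden macrophages, rose (4.45, SE 0.99, adjusted p = 0.0193). Voom called 0 of the 12 higher and 3 lower there, where it called 17.5% of all genes lower. In PR-SET7_LOBE against WT 0 of the 12 passed in edgeR's test. DESeq2 called 3 higher there, where it called 5.57% of all genes. For Gpnmb the log2 fold change was 5.26 in that comparison (SE 0.98, adjusted p = 0.0601), with no overlap of the groups. Gpnmb had 8.42 to 57.1 CPM in PR-SET7_LOBE, 9.19 to 26.1 CPM in DEN_WT and 0.383 to 1.20 CPM in WT. Of 6 adipocyte markers 1 had enough counts to be tested, and the list summed to 7.75 to 53.5 CPM in PR-SET7_LOBE, 6.80 to 7.44 CPM in DEN_WT and 3.64 to 6.64 CPM in WT, with Adipoq at 0 counts in DEN_WT and Cfd at 0 in WT. The tested one, Cidec, a lipid droplet protein, made up most of these sums, with 53.3, 7.56, 47.8 and 10.1 CPM in PR-SET7_LOBE, 6.995 and 6.447 CPM in DEN_WT, and 3.25 and 6.09 CPM in WT. Adipoq, Plin1, Cfd, Retn and Lep were each under 1 CPM in every library but PR-SET7_LOBE replicate 4, where the highest was Adipoq at 2.64 CPM. The part of these cells in the Saa3 levels was not tested. In whole tissue, fewer cells of a type and less RNA per cell cannot be told apart.

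Saa4 encodes the serum amyloid A present in plasma without a stimulus. Its levels were 329, 182, 233 and 217 CPM in PR-SET7_LOBE, 356 and 246 CPM in DEN_WT, and 756 and 554 CPM in WT. Both WT libraries lay above all 6 others, and 17.2% of the tested genes had a smaller SD within groups, pooled over the 3 groups, against 99.96% for Saa1 and 99.98% for Saa2. Within DEN_WT alone the 2 libraries were farther apart than those of 76.9% of the tested genes. The log2 fold change of Saa4 was -1.45 in PR-SET7_LOBE against WT (SE 0.39, 95% interval -2.31 to -0.59, unadjusted p = 0.00341, adjusted p = 0.142), which did not pass after adjustment. DESeq2 called it lower at an adjusted p of 0.00795 and limma's voom at 0.0494, and leaving out PR-SET7_LOBE replicate 1 gave an adjusted p of 0.0235. Without that library 2392 of 17148 genes passed, against 43 of 17362 with it. In DEN_WT against WT the log2 fold change of Saa4 was -1.12 (SE 0.47, adjusted p = 0.148). Voom called Saa4 lower there at an adjusted p of 0.0176. The fit on these groups alone gave 0.0459 and the fit without PR-SET7_LOBE replicate 1 gave 0.0488. These 2 fits called 5643 of 14924 and 4549 of 17148 genes, against 1689 of 17362 as reported. The log2 fold change of Saa4 was -0.33 between PR-SET7_LOBE and DEN_WT (SE 0.40, 95% interval -1.21 to 0.55, adjusted p = 0.631).

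Orm1, Orm2 and Orm3 encode alpha-1-acid glycoproteins, plasma carriers of basic drugs and lipids. Orm1 had 671, 313, 373 and 159 CPM in PR-SET7_LOBE, 259.9 and 122 CPM in DEN_WT, and 938 and 439 CPM in WT. Orm2 had 605, 179, 259.7 and 48.1 CPM in PR-SET7_LOBE, 90.0 and 20.8 CPM in DEN_WT, and 691 and 103 CPM in WT. Orm3, the least abundant of the 3, had 29.8, 23.3, 33.6 and 10.4 CPM in PR-SET7_LOBE, 13.9 and 5.74 CPM in DEN_WT, and 45.3 and 30.4 CPM in WT. For each of the 3 genes both DEN_WT libraries were below both WT libraries, and PR-SET7_LOBE overlapped both other groups. WT replicate 1 was the highest library and DEN_WT replicate 2 the lowest in all 3.

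In DEN_WT against WT the log2 fold change was -1.85 for Orm1 (SE 0.70, adjusted p = 0.115), -2.84 for Orm2 (SE 1.16, adjusted p = 0.137) and -1.94 for Orm3 (SE 0.60, 95% interval -3.28 to -0.61, adjusted p = 0.0660). None of the 3 passed, while DESeq2 called all 3 lower, at adjusted p of 0.0403, 0.0317 and 0.0218. It called 7.58% of all genes lower in that comparison. In PR-SET7_LOBE against WT the values were -0.86 for Orm1 (adjusted p = 0.439), -0.54 for Orm2 (adjusted p = 0.775) and -0.64 for Orm3 (adjusted p = 0.501), and that of Orm2 turned to 1.39 without WT replicate 1. Between PR-SET7_LOBE and DEN_WT they were 0.99 (adjusted p = 0.341), 2.30 (adjusted p = 0.198) and 1.30 (adjusted p = 0.154). Orm transcripts are 86.1% to 91.0% identical along their whole length, so the division of reads among them is uncertain, and their sum gave log2 fold changes of -0.73 (adjusted p = 0.576), -2.13 (adjusted p = 0.125) and 1.40 (adjusted p = 0.266) in the same 3 comparisons. Orm2 made up 46.3% (95% Wilson interval 45.5 to 47.2), 34.8% (33.5 to 36.0), 39.0% (37.9 to 40.1) and 22.2% (20.5 to 23.9) of the summed Orm counts in PR-SET7_LOBE, 24.7% (23.4 to 26.1) and 14.0% (12.4 to 15.8) in DEN_WT, and 41.3% (40.5 to 42.0) and 18.1% (17.1 to 19.0) in WT. Its share was highest in PR-SET7_LOBE replicate 1 and WT replicate 1, which also had the highest summed Orm level.

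Hp encodes haptoglobin, which binds free haemoglobin in plasma. It had 18639, 13759, 5165 and 4443 CPM in PR-SET7_LOBE, 3936 and 3341 CPM in DEN_WT, and 18952 and 6171 CPM in WT. Both DEN_WT libraries were lower than the other 6, and PR-SET7_LOBE replicates 1 and 2 lay between the WT libraries. The log2 fold change was -1.79 in DEN_WT against WT (SE 0.83, adjusted p = 0.181) and 1.53 in PR-SET7_LOBE against DEN_WT (SE 0.75, adjusted p = 0.227), neither of which passed edgeR's test. Voom called Hp lower in DEN_WT against WT, by -1.58 at an adjusted p of 0.0284. In PR-SET7_LOBE against WT it was -0.26 (SE 0.69, 95% interval -1.78 to 1.26, adjusted p = 0.865), and without WT replicate 1 it was 0.76.

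Apcs encodes serum amyloid P component, a pentraxin that binds amyloid fibrils and chromatin. It had 67.6, 299, 255 and 157 CPM in PR-SET7_LOBE, 548 and 715 CPM in DEN_WT, and 479 and 268 CPM in WT. The 2 DEN_WT libraries were the highest of the 8, and PR-SET7_LOBE replicate 1, among the highest libraries for most other genes of the set, was the lowest. Apcs differed by a log2 fold change of -1.70 between PR-SET7_LOBE and DEN_WT (SE 0.54, 95% interval -2.88 to -0.52, adjusted p = 0.0677), with no overlap, which did not pass. DESeq2 called it lower at an adjusted p of 0.0115 and voom at 0.00399. For DEN_WT against WT its value was 0.76 (SE 0.65, adjusted p = 0.457), and in PR-SET7_LOBE against WT -0.94 (SE 0.54, adjusted p = 0.376). Crp, which encodes the other short pentraxin of the liver, had 72.1, 201, 110.1 and 154 CPM in PR-SET7_LOBE, 313 and 280.2 CPM in DEN_WT, and 136 and 173 CPM in WT, and it passed in none of the 3 comparisons.

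Lcn2 encodes lipocalin 2, which captures bacterial siderophores and is made by hepatocytes and by neutrophils. It had 999, 767, 1625 and 106 CPM in PR-SET7_LOBE, 668 and 602 CPM in DEN_WT, and 686 and 39.7 CPM in WT. The DEN_WT libraries differed by 1.11 times, while the highest library had 15.3 times the level of the lowest in PR-SET7_LOBE and 17.3 times in WT. No difference passed: the log2 fold change was 1.27 in PR-SET7_LOBE against WT (SE 1.06, adjusted p = 0.536), 0.81 in DEN_WT against WT (SE 1.16, adjusted p = 0.673) and 0.46 in PR-SET7_LOBE against DEN_WT (SE 1.02, adjusted p = 0.801). Without WT replicate 2 the value in DEN_WT against WT was -0.00824, and without PR-SET7_LOBE replicate 3 the value between PR-SET7_LOBE and DEN_WT was -0.13.

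Of 13 neutrophil markers 9 were tested, and the list summed to 38.8 to 62.5 CPM in PR-SET7_LOBE, 6.01 to 12.9 CPM in DEN_WT and 43.0 to 48.0 CPM in WT. The DEN_WT sums were below those of all other libraries. Csf3r, the receptor of granulocyte colony-stimulating factor, fell in DEN_WT against WT (log2 fold change -2.87, SE 0.49, adjusted p = 0.00577), as did the chemokine receptor Cxcr2 (-3.05, SE 0.84, adjusted p = 0.0456). No other of the 9 passed there, where 4.54% of all genes passed as lower. DESeq2 called 3 of the markers lower and voom 2, where they called 7.58% and 17.5% of all genes lower. The fall of Csf3r passed in 17 of 18 alternative settings and that of Cxcr2 in 11. These 2 genes made up most of the WT sums: Csf3r had 22.6 and 18.4 CPM and Cxcr2 12.0 and 18.9 CPM in WT. Both were higher in PR-SET7_LOBE than in DEN_WT, with log2 fold changes of 2.82 for Csf3r (SE 0.46, adjusted p = 0.00306) and 2.97 for Cxcr2 (SE 0.79, adjusted p = 0.0346). Of all genes 11.1% passed in that comparison. DESeq2 called 3 of the markers higher and voom 6 there, where they called 16.4% and 29.9% of all genes in either direction. Camp, Ly6g and Ngp, which encode granule and surface proteins of neutrophils, had 0 counts in both WT libraries. Ngp had 1.06 and 0.0883 CPM in DEN_WT, so its DEN_WT libraries lay above WT, with no call (adjusted p = 0.177), Mmp8 had 0.531 and 0.177 CPM in DEN_WT and 0.191 and 0 CPM in WT, and S100a8 lay between 0.0922 and 3.16 CPM in all 8. The DEN_WT libraries were thus not below WT for every marker of the list. The Lcn2 level in DEN_WT was within the range of the other libraries, and the part of neutrophils in it was not tested.

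In PR-SET7_LOBE against WT, 0 of the 10 genes passed at an adjusted p under 0.05 in edgeR's test, where 0.248% of all tested genes did. At an unadjusted p under 0.05 the count was 1, Saa4, where 17.2% of all genes passed, and DESeq2 and voom each called 1 gene, Saa4 in both, where they called 5.57% and 2.22% of all genes. The groups overlapped for 9 of the 10, with Saa4 lower in all PR-SET7_LOBE libraries, which 10.5% of all genes were. The median log2 fold change of the 10 was -0.90, beside 0.11 for all tested genes, and without WT replicate 1 it was 0.30, beside 0.24.

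In DEN_WT against WT, 1 of the 10 passed, Saa3, where 9.73% of all genes passed in either direction and 4.54% as lower. At an unadjusted p under 0.05 the count was 5, where 28.9% of all genes passed. The DEN_WT libraries lay below both WT libraries for 8 of the 10, where 33.3% of all genes did, and above both for 1, Apcs, where 37.8% did. The median log2 fold change was -1.90, beside 0.06 for all genes, and -0.91 without WT replicate 1. DESeq2 called 4 genes and voom 5, all lower, where they called 7.58% and 17.5% of all genes lower.

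Between PR-SET7_LOBE and DEN_WT 0 of the 10 passed in edgeR's test, where 11.1% of all genes did. At an unadjusted p under 0.05 there were 3, Saa3, Orm3 and Apcs, where 25.8% of all genes passed, while DESeq2 called 2, Saa3 and Apcs, where it called 16.4% of all genes, and voom 1, Apcs, where it called 29.9%. PR-SET7_LOBE lay above both DEN_WT libraries for Saa3 and Hp, where 19.3% of all genes did, and below them for Apcs, where 21.2% did. The median log2 fold change was 1.42, beside 0.18 for all genes. The comparisons with WT share the same 2 WT libraries, and those with DEN_WT the same 2 DEN_WT libraries, so the 3 sets of values are not independent of each other.

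**Figure D3:**
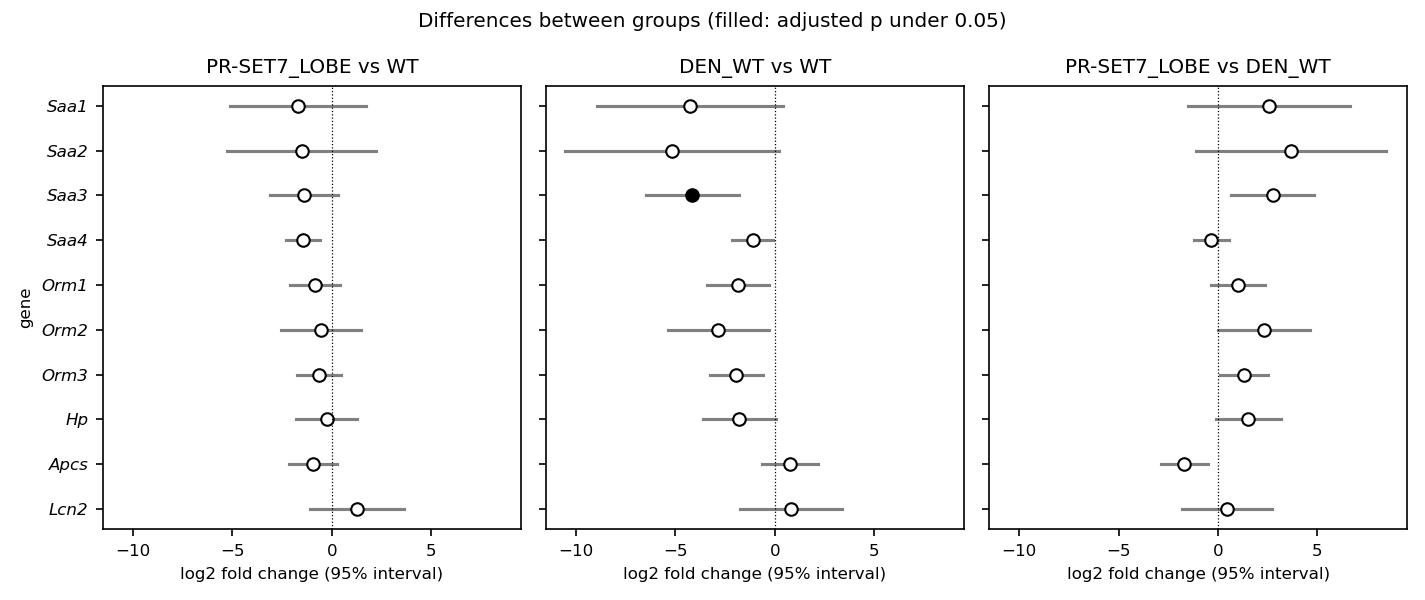
Log2 fold change of each gene with its 95% interval for PR-SET7_LOBE against WT (left), DEN_WT against WT (middle) and PR-SET7_LOBE against DEN_WT (right), from edgeR's fit over all genes; a filled point passed at an adjusted p under 0.05. The single filled point is Saa3 in DEN_WT against WT, at -4.14.

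The spread among libraries was large for most of the set. Over all 3 groups the median SD within groups was 1.11 on the log2 scale for the 10 genes, against 0.60 for all tested genes. Saa1, Saa2, Lcn2 and Orm2 had SDs of 3.09, 3.55, 1.87 and 1.60, above those of 99.96%, 99.98%, 99.3% and 98.3% of the tested genes. Saa3 stood at 93.8%, Hp at 80.5%, Orm1 at 72.7%, Apcs at 70.8% and Orm3 at 64.2%. Saa1 and Saa2 held the widest spread of the set and Saa4 the narrowest, at 17.2%.

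**Figure D4:**
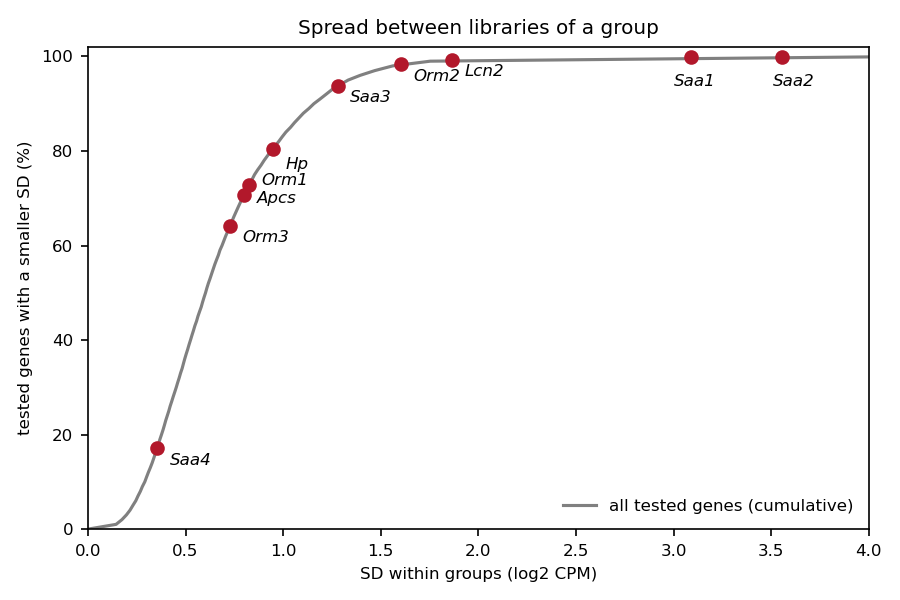
SD within groups of log2 CPM (horizontal axis) against the percent of tested genes with a smaller SD (vertical axis); the line is the cumulative curve of all 17362 tested genes and the points are the 10 acute phase response genes. Saa1 and Saa2 lie at 99.96% and 99.98%, and Saa4 at 17.2%.

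The same libraries stood high for many of the genes. WT replicate 1 was the highest library for 8 of the 10 genes, and DEN_WT replicate 2 the lowest for 5. With each gene centred on its mean over the 8 libraries, the median of the 10 genes was 1.25, 0.15, 0.44 and -1.15 on the log2 scale in PR-SET7_LOBE replicates 1 to 4, -0.38 and -1.62 in DEN_WT, and 1.42 and 0.15 in WT. The 10 genes held 2.88%, 1.62%, 1.54% and 0.642% of all counts in PR-SET7_LOBE, 0.747% and 0.543% in DEN_WT, and 3.30% and 0.584% in WT. WT replicate 1 and PR-SET7_LOBE replicate 1 carried the largest shares of counts, and the share in WT replicate 2 lay between those of the DEN_WT libraries.

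**Figure D5:**
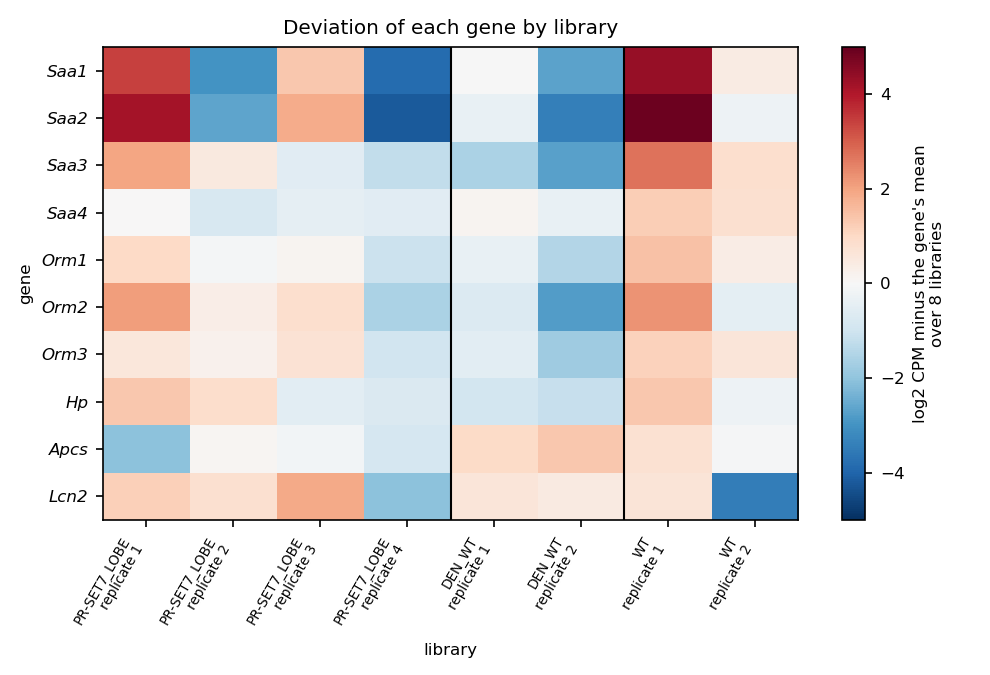
Level of each gene (rows) in each library (columns, PR-SET7_LOBE, DEN_WT and WT from left to right) as log2 CPM minus the mean of that gene over the 8 libraries; red is above and blue below the mean. The columns of PR-SET7_LOBE replicate 1 and WT replicate 1 are red for most genes, with Apcs blue in PR-SET7_LOBE replicate 1, and WT replicate 2 is dark blue for Lcn2.

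Levels were compared between genes as CPM per kilobase of the principal transcript. In PR-SET7_LOBE the order was Hp, Saa1, Saa2, Lcn2, Orm1, Orm2, Apcs, Saa4, Saa3 and Orm3, with Hp at 7808 ± 5115 CPM per kb (SD, n = 4). In DEN_WT, Hp came first at 2705 ± 313 CPM per kb (SD, n = 2), followed by Lcn2, Apcs, Saa1, Orm1, Saa2, Saa4, Orm2, Orm3 and Saa3. In WT the order was Saa1, Hp, Saa2, Orm1, Orm2, Lcn2, Apcs, Saa4, Saa3 and Orm3. Neighbours in these orders overlapped across libraries for 9 of 9 pairs in PR-SET7_LOBE, 6 of 9 in DEN_WT and 7 of 9 in WT. The gaps without overlap were those between Hp and Lcn2, Saa4 and Orm2, and Orm2 and Orm3 in DEN_WT, and between Saa4 and Saa3 and Saa3 and Orm3 in WT.

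Likeness of profiles was measured as the root mean square difference of centred log2 CPM over the 8 libraries, among 11087 named genes. Saa1 and Saa2 differed by 0.55, with no ranked gene nearer to either. Their nearest gene outside the set was Mt2, which encodes a metal-binding metallothionein, at 1.34 from Saa1 and 1.58 from Saa2. Mt2 had 243, 21.7, 54.8 and 2.73 CPM in PR-SET7_LOBE, 125 and 20.8 CPM in DEN_WT, and 483 and 18.6 CPM in WT, so that it was high in WT replicate 1 and PR-SET7_LOBE replicate 1, like both Saa genes. Orm1 and Orm3 differed by 0.34, and 0.0361% of the ranked genes were nearer to Orm1. Among the others, the nearest genes were Psmb10 for Orm1 (0.26), Smpd3 for Orm2 (0.70), Gde1 for Orm3 (0.33), Scarb2 for Saa4 (0.20), Mir5105 for Saa3 (0.47), Ccnh for Apcs (0.33) and Cd52 for Lcn2 (0.83). For Apcs, 44.6% of the ranked genes were nearer than its closest fellow member, Saa4, and for Lcn2 34.2% were nearer than Hp. The distances to these fellow members were 1.12 for Apcs and 1.70 for Lcn2. Their own root mean square spreads were 1.02 and 1.69, so a gene with a flat profile would be nearer than either fellow member.

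Other plasma proteins and liver genes known to rise in the acute phase were read from a list of 22, all tested. Of these, 2 rose and 1 fell in DEN_WT against WT, where 9.73% of all genes passed in either direction. Cd14, a co-receptor for bacterial lipopolysaccharide, had 75.7 and 104 CPM in DEN_WT, against 8.13 and 2.49 CPM in WT (log2 fold change 4.08, SE 1.01, adjusted p = 0.0305). Il1rn, which encodes the interleukin 1 receptor antagonist, had 31.5 and 53.8 CPM in DEN_WT, against 4.40 and 2.67 CPM in WT (3.59, SE 0.61, adjusted p = 0.00552). The groups did not overlap for either gene, and both were higher in DEN_WT. The rise of Cd14 passed in 13 of 18 alternative settings and that of Il1rn in 17. In DEN_WT both libraries lay above WT for 37.8% of all genes and below WT for 33.3%. Of the 10 acute phase genes 8 lay below WT there. Genes of the list lay on either side, such as Crp and Fga above both WT libraries and Itih3 and C3 below both. Cfb, complement factor B, fell in DEN_WT against WT (-2.09, SE 0.45, adjusted p = 0.0162). It was higher in PR-SET7_LOBE than in DEN_WT (1.39, SE 0.40, adjusted p = 0.0479), which passed in 7 of 18 alternative settings. The counts of Cfb are uncertain because C2 and Gm20547 overlap it on the same strand. In PR-SET7_LOBE against WT 0 of the 22 passed in edgeR's test. Of them, 6 had an unadjusted p under 0.05, as did 17.2% of all genes. DESeq2 called 4 and voom 0, where they called 5.57% and 2.22% of all genes. In DEN_WT against WT DESeq2 called 3 higher and 1 lower, and voom 5 higher and 3 lower. They called 3144 and 6335 of all 17362 genes there. Between PR-SET7_LOBE and DEN_WT DESeq2 called 2 higher and 6 lower, and voom 2 higher and 8 lower. They called 16.4% and 29.9% of all genes there. The median log2 fold change of the list was -0.47 in PR-SET7_LOBE against WT, 0.05 in DEN_WT against WT and -0.65 in PR-SET7_LOBE against DEN_WT, beside 0.11, 0.06 and 0.18 for all genes.

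Of 10 plasma proteins and liver genes known to fall in the acute phase, 0 passed edgeR's test in either comparison with WT. Of all genes, 0.248% passed in PR-SET7_LOBE against WT and 9.73% in DEN_WT against WT. At an unadjusted p under 0.05 the count was also 0 in both, where 17.2% and 28.9% of all genes passed. DESeq2 called 0 of the 10 in both comparisons, where it called 927 and 3144 of all 17362 genes. Voom called 0 in PR-SET7_LOBE against WT, where it called 386 of all 17362 genes. In DEN_WT against WT it called 2, both higher, where it called 6335 of all 17362 genes. Between PR-SET7_LOBE and DEN_WT 1 of the 10 passed edgeR's test, where 11.1% of all genes passed. DESeq2 and voom each called 2 lower there, where they called 16.4% and 29.9% of all genes in either direction. The gene that passed edgeR's test was Trf, which encodes the iron carrier transferrin. Trf was lower in PR-SET7_LOBE than in DEN_WT, at 386, 1086, 322 and 291 CPM in PR-SET7_LOBE and 1919 and 2326 CPM in DEN_WT (log2 fold change -2.03, SE 0.55, adjusted p = 0.0372). Its counts are uncertain because Gm20425 overlaps it, and the difference passed in 9 of 18 alternative settings. Alb, albumin, ran from 9678 to 104832 CPM in PR-SET7_LOBE, 85340 to 105982 CPM in DEN_WT and 23046 to 52998 CPM in WT, and it passed in none of the comparisons.

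Signals that drive the response were read from 26 cytokine, receptor and transcription factor genes, of which 25 were tested. Il6 was not tested: it had 0 counts in DEN_WT and in WT and 3 counts over the PR-SET7_LOBE libraries. Osmr, the receptor of the interleukin 6 family cytokine oncostatin M, rose in DEN_WT against WT, with 13.4 and 11.8 CPM in DEN_WT and 1.34 and 1.84 CPM in WT (log2 fold change 2.97, SE 0.73, adjusted p = 0.0301). Lifr, the receptor of leukaemia inhibitory factor, was lower in PR-SET7_LOBE than in DEN_WT (-1.57, SE 0.44, adjusted p = 0.0426). The Lifr difference passed in 9 of 18 alternative settings. In PR-SET7_LOBE against WT 0 of the 25 passed in edgeR's test. Of them, 4 had an unadjusted p under 0.05, as did 17.2% of all genes. DESeq2 called 3 and voom 2, where they called 5.57% and 2.22% of all genes. In DEN_WT against WT 1 passed and 9 had an unadjusted p under 0.05, as did 9.73% and 28.9% of all genes. DESeq2 called 2 higher and 1 lower there, and voom 7 higher and 6 lower. They called 3144 and 6335 of all 17362 genes in that comparison. Stat3 had 183, 110.4, 114 and 103 CPM in PR-SET7_LOBE, 161 and 125 CPM in DEN_WT, and 223 and 183 CPM in WT, and its feedback inhibitor Socs3 had 46.8, 14.4, 27.9 and 9.93 CPM in PR-SET7_LOBE, 41.8 and 23.0 CPM in DEN_WT, and 53.4 and 23.4 CPM in WT. Neither passed in any comparison, and the Stat3 counts are uncertain because Stat5a overlaps it on the opposite strand. Cebpd, the C/EBP factor induced in the acute phase, had 43.2, 13.1, 5.38 and 1.64 CPM in PR-SET7_LOBE, 3.45 and 2.38 CPM in DEN_WT, and 25.9 and 13.0 CPM in WT, with a log2 fold change of -2.73 in DEN_WT against WT (SE 1.15, adjusted p = 0.147).

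Receptors and partners of the proteins, 11 genes such as the haptoglobin receptor Cd163 and the lipocalin receptor Slc22a17, had 0 calls in all 3 comparisons in edgeR's test, and 2, 3 and 1 at an unadjusted p under 0.05 in PR-SET7_LOBE against WT, DEN_WT against WT and PR-SET7_LOBE against DEN_WT, where 17.2%, 28.9% and 25.8% of all genes had one. In the same order of comparisons, DESeq2 called 1, 1 and 0 of the 11, and voom 1, 3 and 3. Over all 17362 genes DESeq2 called 927, 3144 and 2842, and voom 386, 6335 and 5188.

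Among 8 markers of bile duct cells and ductal progenitors, Spp1 rose in both groups against WT and Tspan8, a tetraspanin, rose in DEN_WT (58.1 and 155 CPM in DEN_WT, against 0 and 0.645 CPM in WT, adjusted p = 0.00175). Spp1, osteopontin, had 176, 249, 191 and 68.8 CPM in PR-SET7_LOBE, 383 and 679 CPM in DEN_WT, and 15.5 and 9.04 CPM in WT (log2 fold change 3.80, SE 0.64, adjusted p = 0.0411 for PR-SET7_LOBE and 5.43, SE 0.72, adjusted p = 0.00215 for DEN_WT). Its rise passed in 13 of 18 alternative settings for PR-SET7_LOBE and in 18 for DEN_WT. No other of the 8 passed against WT in edgeR's test, where 0.248% of all genes passed for PR-SET7_LOBE and 9.73% for DEN_WT. Tspan8 was lower in PR-SET7_LOBE than in DEN_WT (log2 fold change -4.27, SE 0.59, adjusted p = 0.00157). Krt19 and Krt7, keratins of bile duct cells, passed in no comparison: in DEN_WT against WT their log2 fold changes were -0.29 (adjusted p = 0.835) and -0.79 (adjusted p = 0.513), and in PR-SET7_LOBE against WT -0.05 (adjusted p = 0.977) and -0.43 (adjusted p = 0.738). The list, in which Spp1 held most of the level in PR-SET7_LOBE and DEN_WT, summed to 108 to 279.9 CPM in PR-SET7_LOBE, 463 to 857 CPM in DEN_WT and 20.9 to 30.1 CPM in WT, so its sums separated the groups without overlap, which those of the 10 acute phase genes, 5206 to 32888 CPM in PR-SET7_LOBE, 5177 to 6689.8 CPM in DEN_WT and 8673 to 43511 CPM in WT, did not. Of the 10 hepatocyte markers, 0 passed in PR-SET7_LOBE against WT in edgeR's test. At an unadjusted p under 0.05 there were 3, where 17.2% of all genes passed. DESeq2 and voom each called 2 lower, where they called 5.57% and 2.22% of all genes in either direction. Ass1, an enzyme of the urea cycle, fell in DEN_WT against WT (log2 fold change -3.51, SE 0.85, adjusted p = 0.0287). Tdo2, an enzyme of tryptophan breakdown, had 650.2 and 625 CPM in DEN_WT, against 105 and 196 CPM in WT, which did not pass edgeR's test (log2 fold change 2.08, adjusted p = 0.125) and which DESeq2 and voom called higher (adjusted p of 0.0330 and 0.00226). The part of the cell makeup in the acute phase levels was not tested.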

How the data were processed

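Whole-liver RNA of 8 libraries was measured by sequencing on an Ion Proton after oligo(dT) selection, per the labels' protocols. The authors deposited unnormalized counts for each Ensembl gene, as 1 series table and as single-sample files holding the same values. The submitters' processing notes name TopHat2 2.0.9, Cufflinks, DESeq and the build mm9. Which counter, annotation and strand setting were used, and how reads with several hits were treated, is not given in the sources. Coordinates of genes come from the deposited table.

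Counts were scaled by TMM (edgeR 4.0.16), filtered with filterByExpr by group, and fitted over 8 libraries with the group as the 1 term. Differences were tested by edgeR's robust quasi-likelihood test with Benjamini-Hochberg adjustment over 17362 genes, called at an adjusted p under 0.05. The standard error is the log2 fold change divided by the root of F. The common biological coefficient of variation was 0.479. Replicates of a group differed beyond sampling noise (lowest chi-square per degree of freedom 27.4). Alternatives were DESeq2 1.42.0, limma 3.58.1 (voom with quality weights), other scalings and filters (none, or 5 CPM in 2 libraries), fewer libraries, summed copies and a replicate block. Replicate numbers are not said to pair libraries, and only 2 are shared between groups. Copies were sought with blastn 2.17.0 in GENCODE M21 transcripts, of another build, which also gave lengths.

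The members and lists were chosen with earlier results of these data known. Named are all 10 members, up to 4 genes of each list and comparison with the smallest adjusted p, the cell type markers and the genes nearest in profile, of which 1 is not reported here. Crp, Stat3, Socs3, Cebpd and Alb were named from the lists after their values were seen, beside the members they relate to. Fga, Fgb, Fgg, Itih3 and C3 were also named after their values were seen.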

Additional observations from a re-analysis of the deposited data

Results flagged for a closer look

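Of 23 genes examined among the 4 PR-SET7_LOBE libraries, the 10 acute phase genes and 13 list genes that passed in a comparison, 3 of the list genes had 1 library far from the other 3. Replicate 2 was high for Trf, at 1086 CPM, and replicate 4 for Lifr, at 97.0 CPM, and for Cxcr2, at 34.4 CPM. Chance alone marks about 1 in 20 such groups if values follow a normal distribution. The values here were CPM without a log scale, so their rate may differ and was not measured. None of the 10 acute phase genes was marked in this group, and the groups of 2 libraries were not examined in this way.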

How the results depend on the processing

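Of the member fold changes, 475 kept their direction and their side of the threshold over all alternatives, 34 passed where they had not, 5 no longer passed and 11 turned. For the list genes that had passed, 252 fold changes still passed and 72 no longer did. The count of acute phase genes called was 0 in PR-SET7_LOBE against WT. It was 1 by DESeq2, 1 by voom and 0 to 2 with a PR-SET7_LOBE library left out. Of all genes, 43 of 17362 were called as reported, 927 by DESeq2 and 386 by voom. The fit without PR-SET7_LOBE replicate 1 called 2392 of 17148. In DEN_WT against WT the count of 1 became 4 by DESeq2, 5 by voom and 4 with these groups alone. It was 0 to 4 with a PR-SET7_LOBE library left out. The calls over all genes, 1689 of 17362 as reported, were 3144 by DESeq2 and 6335 by voom. They were 5643 of 14924 with these groups alone and 4549 of 17148 without PR-SET7_LOBE replicate 1. Between PR-SET7_LOBE and DEN_WT the count of 0 became 2 by DESeq2, 1 by voom and 1 with no count filter. It was 0 to 1 with a PR-SET7_LOBE library left out. The calls over all genes, 1924 of 17362 as reported, were 2842 by DESeq2, 5188 by voom and 2271 of 30078 with no count filter. For the other lists together, 1 gene called in PR-SET7_LOBE against WT became 2 with upper-quartile scaling, 19 by DESeq2, 7 by voom, 11 with no count filter, 0 with these groups alone and 0 to 24 with a library left out. In DEN_WT against WT, 11 became 20 by DESeq2, 39 by voom, 33 with these groups alone and 3 to 26 with a library left out. Between PR-SET7_LOBE and DEN_WT, 6 became 23 by DESeq2, 32 by voom, 12 with no count filter, 2 with these groups alone and 1 to 7 with a library left out.

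Directions turned in 11 cases, none of which had passed. In PR-SET7_LOBE against WT without WT replicate 1 the log2 fold change was 1.36 for Saa1, 2.70 for Saa2, 1.39 for Orm2 and 0.76 for Hp. Hp was 0.03 without PR-SET7_LOBE replicate 3 and 0.00288 without replicate 4. With each library left out in turn, these values ran from -3.60 to 1.36 for Saa1, -3.60 to 2.70 for Saa2, -1.29 to 1.39 for Orm2 and -0.78 to 0.76 for Hp. Lcn2 was -0.00824 in DEN_WT against WT without WT replicate 2 (range -0.00824 to 4.01 with a library left out), and between PR-SET7_LOBE and DEN_WT it was -0.30 by voom and -0.13 without PR-SET7_LOBE replicate 3 (range -0.13 to 0.88). The cause was not tested.

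With the replicate number as a block, the acute phase genes called were 0 in PR-SET7_LOBE against WT, 6 in DEN_WT against WT (Saa1, Saa2, Saa3 and the 3 Orm genes) and 4 between PR-SET7_LOBE and DEN_WT (Saa3, Orm2, Orm3 and Hp), and the other list genes called were 6, 20 and 15. Of all 17362 genes the block fit called 243, 3137 and 2609 in the same order, against 43, 1689 and 1924 with no block. With the block Orm2 was 0.29 and Hp 0.51 in PR-SET7_LOBE against WT. The labels do not say that a number pairs libraries, only 2 numbers are shared, and same-numbered libraries correlated in their deviations from the group means by 0.165 and 0.106 between PR-SET7_LOBE and WT, 0.0599 between DEN_WT and WT, and -0.0087 and 0.020 between PR-SET7_LOBE and DEN_WT.

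Upper-quartile scaling moved the median log2 fold change of all genes by 0.18 in PR-SET7_LOBE against WT and by 0.10 between PR-SET7_LOBE and DEN_WT, with no change in the direction of a member. With a library of WT or DEN_WT left out, the lone library is assumed to vary like the other groups. In DEN_WT against WT the 95% interval of Saa2, whose SD within groups was above that of 99.98% of the tested genes, spans -10.6 to 0.22.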
